A study of Mus musculus with 547 samples.

Results

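Cholangiocytes, the epithelial cells that line bile ducts, were compared with hepatocytes in single-cell transcriptomes of mouse fetal liver at E17.5. The cholangiocytes were the 34 cells sorted through the EpCAM+ gate (P2) at E17.5 and given the putative type cholangiocyte by the submitters. They were set against the 35 cells sorted through the DLK+ gate (P1) on the same day and given the putative type hepatoblast/hepatocyte, called hepatocytes here. Together they are 69 of the 529 single cells in the read count table, and 1 further E17.5 cell came through the EpCAM+ gate with a hepatocyte label and was left out. No culture or treatment applied to either group, and the strain and sex of the embryos are not given in the sources used here. Each cell was picked by hand after sorting and amplified with the Smart-seq2 protocol, which reads whole transcripts and counts no molecules, with ERCC spike-in RNA added to the lysis buffer. The first number in a cell's title, called its set here, was taken as the replicate, and the reads of its cells were added up. Cholangiocytes came from sets 1, 3 and 4 with 15, 4 and 15 cells, and hepatocytes from sets 1, 2, 3 and 4 with 14, 8, 8 and 5 cells. The labels do not say what a set is, nor how the putative type was given. Gate and type coincide in all cells compared, so differences between sorted fractions and differences between cell types cannot be told apart.

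Hepatocytes and cholangiocytes both descend from hepatoblasts, the progenitor epithelium of the fetal liver. Hepatoblasts next to the portal vein receive Notch, TGF-beta and other signals from the portal mesenchyme, form the ductal plate and become cholangiocytes, whereas those of the parenchyma become hepatocytes. Hepatocytes secrete most plasma proteins and carry out the urea cycle, gluconeogenesis and bile acid synthesis; cholangiocytes modify bile, bear a primary cilium on their luminal face and rest on a basement membrane.

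The summed libraries held 17785248, 3405641 and 15053504 gene reads in cholangiocyte sets 1, 3 and 4, and 16989837, 9110688, 7441337 and 6067938 in hepatocyte sets 1 to 4. Hepatocyte libraries were the more concentrated, since the 20 most abundant genes took 27.9 ± 1.5% of the gene reads of cholangiocytes and 44.3 ± 0.762% of those of hepatocytes (SD over 3 and 4 sets). Genes detected per cell averaged 9022 ± 206 in cholangiocytes and 8226 ± 228 in hepatocytes, and the ERCC share of reads 2.64 ± 0.998% and 1.21 ± 0.379%, in the same order. For each of these 3 measures the exact two-sided permutation test over sets gave p = 0.0571, the smallest that 3 against 4 sets allow. The same test gave p = 0.114 for gene reads per ERCC read (43.7 ± 15.7 in cholangiocytes, 90.0 ± 22.5 in hepatocytes) and p = 0.4 for reads per cell. Values below are read counts per library size in CPM, scaled by edgeR's trimmed mean of M-values (TMM), and each difference is log2 of cholangiocytes over hepatocytes. On this scale the 6921 genes at 10 CPM or more in both groups had a median difference of -0.04, against -0.16 under ERCC scaling and 0.95 when reads were divided by the total alone. The scale therefore decides the sign of small differences, and those of gene families named below that turn with it are given with both values. A level relative to the library says nothing of the amount of RNA in a cell, so less of one transcript and more of all others cannot be told apart.

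Of 16838 genes tested with edgeR's quasi-likelihood method, 2100 were higher and 1894 lower in cholangiocytes at a Benjamini-Hochberg adjusted p below 0.05, which is 23.7% of the genes (12.47% higher and 11.25% lower). Division by total reads alone, which shifts all genes, gave 6357 higher and 824 lower, and ERCC scaling 1089 higher and 1278 lower. The median difference of all genes tested was 0.12. No read fell in any hepatocyte set for 358 of the genes called higher, and none in any cholangiocyte set for 73 of those called lower. For such genes a lower bound is printed in place of the fitted difference: the mean level over the level that 3 reads in each sum of the other group would give, which is 0.605 CPM in hepatocytes and 0.347 CPM in cholangiocytes. Bounds and intervals cover counting error only, and hold for these sums alone. In bulk E17.5 DLK+ libraries, in CPM of total reads, unread genes could lie above the hepatocyte level of 0.605 CPM. Sox4 was at 1.39 and 3.23 CPM and Spon1 at 0.759 and 0.857 CPM there, whereas Krt19 was below it at 0.316 and 0 CPM.

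The sorting genes checked the labels. Epcam, the adhesion molecule of the P2 gate, was at 517, 578 and 484 CPM in cholangiocyte sets and at 9.82, 26, 0.459 and 4.51 CPM in hepatocyte sets. Dlk1, the membrane protein of the P1 gate, was at 93.9, 43.6 and 58.5 CPM in cholangiocytes and 464, 571, 435 and 625 CPM in hepatocytes. Neither gene's groups overlap, and neither is a finding, since the cells were sorted on the proteins.

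Biliary marker genes separated the groups almost completely. How the putative type was given is not stated, so these markers may have served for it, and their separation is no independent check of the labels. Of 11 tested markers on the biliary list 11 were higher in cholangiocytes and none was lower. Their median difference was 8.00, or 5.71 with genes unread in hepatocytes at their bound. Spp1 (chr5:104435118-104441050, GRCm38), which encodes the secreted phosphoprotein osteopontin, stood at 7108, 5353 and 9009 CPM in cholangiocyte sets 1, 3 and 4 and at 3.34, 0.591, 0.918 and 3.66 CPM in hepatocyte sets 1 to 4. Every cholangiocyte set lay above every hepatocyte set by more than 1000 CPM (difference 11.65 ± 1.11 SE, adjusted p = 1.3e-09). Sox9 (chr11:112782224-112787760), the transcription factor that marks the first ductal plate cells, was at 439, 528 and 509 CPM in cholangiocytes and 9.82, 10.0, 7.11 and 11.3 CPM in hepatocytes. The groups do not overlap and the spread within each is small beside the gap (5.68 ± 1.05 SE, adjusted p = 9.5e-05). Krt19 (chr11:100140810-100148665), a keratin of simple ducts, had 27.6, 119 and 67.9 CPM in cholangiocytes and no read in hepatocytes, at least 118-fold higher (adjusted p = 9.5e-05). Spon1 (chr7:113765998-114043370), a secreted matrix protein, had 298, 424 and 394 CPM in cholangiocytes and no read in hepatocytes, at least 616-fold higher (adjusted p = 1.8e-10). Cd24a, a membrane glycoprotein of immature epithelia, and Krt7, a second ductal keratin, averaged 494 ± 92.3 and 77.8 ± 26.1 CPM in cholangiocytes, against 0.745 ± 1.34 and 0.808 ± 0.850 CPM in hepatocytes. Prom1, a protein of apical membrane protrusions, averaged 190 ± 52.2 CPM in cholangiocytes and was also read in hepatocytes, at 43.5 ± 19.3 CPM.

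**Figure D1:**
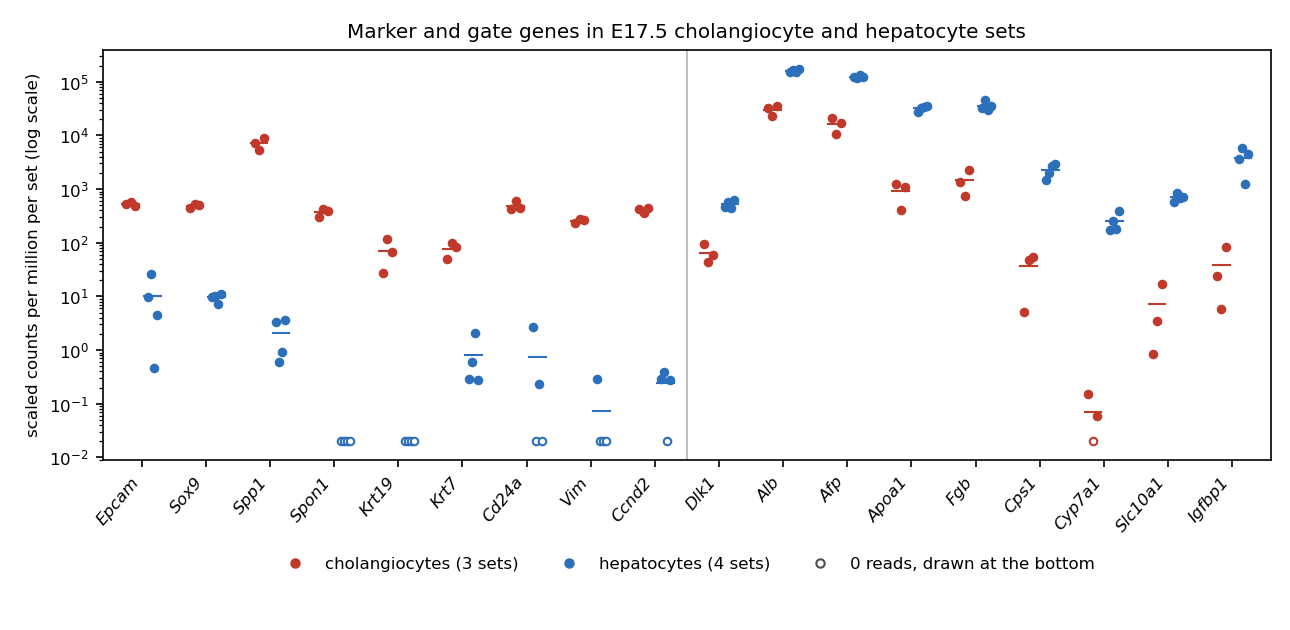
Scaled CPM (log axis) of biliary and hepatocyte genes in each set, with cholangiocyte sets left of hepatocyte sets for every gene; each point is the sum over the cells of a set. Spp1 lies between 5353 and 9009 in cholangiocytes and under 4 in hepatocytes, whereas Alb lies between 22675 and 35842 in cholangiocytes and between 151356 and 172580 in hepatocytes.

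Transcription factors of the biliary and epithelial list were mostly higher, and those of the hepatocyte list were lower by less. Of 17 tested biliary and epithelial factors 12 were higher and none lower (median 3.72, or 3.38 at bounds), and of 22 hepatocyte factors none was higher and 11 were lower (median -1.14). Sox4, an SRY-box factor that acts with Sox9 in mouse bile duct development, was at 25.6, 27.9 and 22.1 CPM in cholangiocytes and unread in hepatocytes, at least 41.7-fold higher (adjusted p = 3.4e-05). Glis3, a zinc-finger factor of ducts, averaged 33.8 CPM in cholangiocytes and rested on 1 read in hepatocytes (adjusted p = 1.3e-04). Grhl2, a regulator of epithelial junction genes, had 5.67, 1.42 and 11.9 CPM in cholangiocytes and no read in hepatocytes (adjusted p = 0.0023). It reached 1 TPM (a level per transcript length) in 9 of 34 cholangiocytes. Tead2, a DNA-binding partner of YAP, averaged 104 ± 2.12 CPM in cholangiocytes and 6.18 ± 4.61 CPM in hepatocytes (4.04 ± 0.41 SE, adjusted p = 3.0e-09). Onecut1, which is known for its part in duct formation, did not pass the test, at 49.4, 61.1 and 81.4 CPM in cholangiocytes and 54.3, 45.5, 80.3 and 76.6 CPM in hepatocytes. The sets of the 2 lineages overlap throughout.

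Among hepatocyte factors, Ppara, the nuclear receptor of fatty acid catabolism, stood at 19.6, 18.7 and 47.2 CPM in cholangiocytes and 173, 237, 225 and 244 CPM in hepatocytes (-2.94 ± 0.68 SE, adjusted p = 0.0015). Nr1i3, the xenobiotic receptor CAR, rested on 1 read in cholangiocytes and averaged 7.06 CPM in hepatocytes (adjusted p = 0.0020). Tbx3, a repressor of biliary fate in hepatoblasts, averaged 0.809 ± 1.31 CPM in cholangiocytes and 10.6 ± 4.65 CPM in hepatocytes (-3.47 ± 0.90 SE, adjusted p = 0.0043). Hnf4a, the central hepatocyte nuclear receptor, was at 42.2, 43.3 and 58.8 CPM in cholangiocytes and 88.0, 72.6, 89.7 and 98.9 CPM in hepatocytes, which did not overlap (-0.86 ± 0.29 SE, adjusted p = 0.031). Leaving out hepatocyte set 1 or 4 or cholangiocyte set 1 or 3 ended that call (adjusted p of 0.060 to 0.11), and total-read scaling put Hnf4a at 0.13. Prox1, a homeobox factor of early hepatoblasts, was at 216, 137 and 254 CPM in cholangiocytes and 118, 170, 163 and 146 CPM in hepatocytes (adjusted p = 0.23). Under total-read scaling this list's median was -0.15, with 4 members higher and 5 lower.

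Genes of epithelial shape and adhesion were mostly higher among those called. Of 6 tested simple epithelial keratins 4 were higher and 1 lower, and of 27 junction proteins 15 were higher and 4 lower. Krt8 and Krt18, the keratin pair of both cell types, were at 1707, 2563 and 1886 CPM and at 852, 986 and 945 CPM in cholangiocytes, against 446, 303, 379 and 374 CPM and 346, 366, 365 and 403 CPM in hepatocytes. Krt20, a keratin best known from gut epithelium, went the other way, at 7.22 ± 5.27 CPM in cholangiocytes and 59.8 ± 14.3 CPM in hepatocytes (-2.97 ± 0.44 SE, adjusted p = 4.4e-06).

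The claudins, the tight junction proteins that set what passes between cells, passed the test in both directions. Cldn6 was at 582, 471 and 349 CPM in cholangiocytes and 0.982, 0.197, 2.29 and 0 CPM in hepatocytes (9.01 ± 1.01 SE, adjusted p = 2.4e-08). Cldn3 and Cldn7 averaged 235 ± 47.8 and 214 ± 49.9 CPM in cholangiocytes and 2.17 ± 3.26 and 3.93 ± 7.15 CPM in hepatocytes. Cldn1 stood at 118, 111 and 135 CPM in cholangiocytes and 1209, 1184, 1237 and 1149 CPM in hepatocytes (-3.30 ± 0.35 SE, adjusted p = 1.1e-08), and Cldn14 at 0.398 ± 0.688 and 24.4 ± 10.6 CPM, again cholangiocytes before hepatocytes. The connexins of hepatocyte gap junctions, Gjb1 and Gjb2, averaged 406 ± 38.7 and 32.2 ± 5.97 CPM in cholangiocytes and 1346 ± 284 and 130 ± 26.1 CPM in hepatocytes. Cdh6, a cadherin, averaged 113 CPM in cholangiocytes and rested on 1 read in hepatocytes (adjusted p = 5.5e-09). Cdh2, the N-cadherin of both lineages, was at 105, 148 and 134 CPM in cholangiocytes and 108, 88.0, 85.1 and 142 CPM in hepatocytes (adjusted p = 0.28).

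In the cytoskeleton, of 27 tested actin, annexin and S100 genes 17 were higher and none lower (median 1.71, or 1.5 at bounds). Vim, an intermediate filament protein better known from mesenchyme, was at 229, 278 and 265 CPM in cholangiocytes and rested on 3 reads in hepatocytes (adjusted p = 1.8e-10). Flna, an actin cross-linker, was at 101, 95.2 and 170 CPM in cholangiocytes and rested on 2 reads in hepatocytes (adjusted p = 3.8e-10). Tmsb4x, which binds free actin, stood at 610, 512 and 516 CPM in cholangiocytes and 9.13, 9.25, 5.73 and 5.07 CPM in hepatocytes (6.19 ± 0.53 SE, adjusted p = 1.2e-10). All 3 genes were read in 33 or 34 of the 34 cholangiocytes at 1 TPM or more (a level per transcript length), so the level was not that of a few cells. Fn1, fibronectin, was abundant in both lineages, at 3535, 2885 and 6575 CPM in cholangiocytes and 3385, 3963, 3816 and 5678 CPM in hepatocytes.

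Basement membrane genes and their integrin receptors were higher in 15 of 28 tested members and lower in 1 (median 0.93). Lama5, a laminin chain of mature ducts, was at 53.6, 33.9 and 110 CPM in cholangiocytes and 11.3, 1.97, 1.83 and 1.13 CPM in hepatocytes (3.93 ± 0.79 SE, adjusted p = 3.0e-04). Agrn, a heparan sulfate proteoglycan of basement membranes, averaged 196 ± 76.1 CPM in cholangiocytes and 13.1 ± 8.72 CPM in hepatocytes (3.86 ± 0.46 SE, adjusted p = 8.7e-08). Col18a1, which encodes the collagen that releases endostatin, was the member lower in cholangiocytes, at 300, 276 and 436 CPM against 654, 778, 640 and 1049 CPM in hepatocytes (-1.21 ± 0.27 SE, adjusted p = 0.0011). On the apical side 6 of 18 tested polarity and brush border genes were higher and 2 lower. Secreted products of ducts and mucosae were split, with 7 of 19 higher and 2 lower. Clu, the extracellular chaperone clusterin, stood at 2992, 2295 and 3097 CPM in cholangiocytes and 354, 456, 281 and 377 CPM in hepatocytes (2.93 ± 0.33 SE, adjusted p = 2.2e-08). Tff3, a trefoil peptide usually named among duct and gut products, was lower, at 50.0, 11.1 and 15.8 CPM in cholangiocytes and 1087, 972, 877 and 548 CPM in hepatocytes (-5.06 ± 0.96 SE, adjusted p = 1.3e-04). Vcam1, an adhesion molecule, was lower as well, at 136 ± 11.3 CPM in cholangiocytes and 686 ± 76.4 CPM in hepatocytes.

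Transport and cilium genes of ducts were partly in place. Of 23 tested duct transport genes 12 were higher and 1 lower (median 1.85, or 1.81 at bounds), and of 31 cilium and polycystic disease genes 14 were higher and 2 lower (median 1.90, or 1.88 at bounds). Sctr, the secretin receptor through which bile secretion is stimulated, was at 5.87, 9.71 and 20.6 CPM in cholangiocytes and unread in hepatocytes, at least 19.9-fold higher (adjusted p = 0.0024). Ano1, a calcium-activated chloride channel, was at 1.96, 19.4 and 8.82 CPM in cholangiocytes and unread in hepatocytes, at least 16.6-fold higher (adjusted p = 9.6e-04), and only 6 of 34 cholangiocytes reached 1 TPM. Car2, a carbonic anhydrase, went the other way, at 26.7, 14 and 30.5 CPM in cholangiocytes and 113, 281, 71.1 and 69 CPM in hepatocytes (-2.48 ± 0.84 SE, adjusted p = 0.029). The call of Car2 ended without hepatocyte set 2 or any 1 cholangiocyte set (adjusted p of 0.058 to 0.14). Pkhd1, mutated in recessive polycystic disease of kidney and liver, stood at 222, 162 and 169 CPM in cholangiocytes and 2.36, 0, 10.6 and 1.41 CPM in hepatocytes (5.71 ± 0.70 SE, adjusted p = 1.2e-07). Bicc1, an RNA-binding protein of the same disease group, averaged 254 ± 33.2 CPM in cholangiocytes and 8.78 ± 6.13 CPM in hepatocytes (4.81 ± 0.74 SE, adjusted p = 7.0e-06). Ift20, a transport protein of the cilium that also works at the Golgi, was lower, at 42.9, 42.9 and 50.1 CPM in cholangiocytes and 102, 98.2, 96.3 and 109 CPM in hepatocytes (-1.16 ± 0.18 SE, adjusted p = 8.4e-06).

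Of the signalling pathways tied to duct formation, Notch had 9 of 22 tested members higher and 1 lower (median 0.75). Jag1, the Notch ligand mutated in Alagille syndrome, was at 78.6, 46.4 and 84.9 CPM in cholangiocytes and 5.70, 0, 3.21 and 0.563 CPM in hepatocytes (4.80 ± 1.17 SE, adjusted p = 0.0027). Notch2, its receptor, stood at 204, 225 and 218 CPM in cholangiocytes and 71.2, 88.2, 78.0 and 70.4 CPM in hepatocytes (1.49 ± 0.19 SE, adjusted p = 2.4e-07). Hes1, a repressor induced by Notch, was at 202, 137 and 147 CPM in cholangiocytes and 15.52, 12.2, 18.8 and 1.97 CPM in hepatocytes (3.71 ± 0.51 SE, adjusted p = 1.1e-06). Nrarp, a feedback inhibitor of the pathway, had 12.4, 14.7 and 5.96 CPM in cholangiocytes and no read in hepatocytes, at least 18.2-fold higher (adjusted p = 0.0067). In each of these 4 genes every cholangiocyte set exceeded every hepatocyte set. Single cells were less uniform, since Hes1 reached 1 TPM in 25 of 34 cholangiocytes and 24 of 35 hepatocytes. Its median and highest cells were at 24.8 and 2006 TPM in cholangiocytes and 5.78 and 50.4 TPM in hepatocytes. Nrarp reached 1 TPM in 16 of 34 cholangiocytes. Numb, an inhibitor of Notch, was the member lower, at 17.7 ± 5.71 CPM in cholangiocytes and 40 ± 11 CPM in hepatocytes (-1.16 ± 0.36 SE, adjusted p = 0.016, and 0.10 without cholangiocyte set 3).

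YAP is a coactivator that enters the nucleus when the Hippo kinases are off and acts through TEAD proteins; of 24 tested members of that list 11 were higher and none lower (median 1.36). Many of its target genes hold TEAD sites, and those of Ankrd1 and Cyr61 are shown because 12 of the 18 list promoters found in the RefSeq table held the letters GGAATG on either strand. The window ran 250 bases before to 50 after the RefSeq start (GRCm38.p6), and 1525 of the 12194 promoters of all genes tested held that motif. The list is made of known targets and regulators, so its share is a description of the list and not a result of these cells. The 250 bases before each start follow, with matches on either strand in capitals (CATTCC is GGAATG read on the other strand). Ankrd1 is at chr19:36119845-36120094 and Cyr61 at chr3:145649986-145650235, both on the minus strand.
Ankrd1: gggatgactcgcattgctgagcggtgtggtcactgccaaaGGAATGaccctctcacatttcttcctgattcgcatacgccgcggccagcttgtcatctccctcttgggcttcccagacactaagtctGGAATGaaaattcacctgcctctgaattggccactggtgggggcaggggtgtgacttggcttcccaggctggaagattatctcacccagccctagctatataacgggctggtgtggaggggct
Cyr61: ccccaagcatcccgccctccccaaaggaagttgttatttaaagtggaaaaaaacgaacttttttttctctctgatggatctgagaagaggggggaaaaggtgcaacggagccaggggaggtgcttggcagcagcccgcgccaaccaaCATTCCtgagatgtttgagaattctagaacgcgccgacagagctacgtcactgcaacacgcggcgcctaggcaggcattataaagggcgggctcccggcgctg

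Cyr61, a matricellular protein, was at 112, 199 and 84.8 CPM in cholangiocytes and 18.3, 7.48, 8.26 and 9.30 CPM in hepatocytes (3.58 ± 0.45 SE, adjusted p = 2.5e-07). Ctgf, its relative, was at 180, 152 and 84.8 CPM in cholangiocytes and rested on 3 reads in hepatocytes (adjusted p = 3.4e-10). Ankrd1, a nuclear cofactor, had 4.86, 7.58 and 3.64 CPM in cholangiocytes and no read in hepatocytes, at least 8.86-fold higher (adjusted p = 0.0049), and reached 1 TPM in 4 of 34 cholangiocytes. Yap1 itself did not pass the test, at 37.0, 6.39 and 29.3 CPM in cholangiocytes and 15, 8.07, 14.7 and 3.94 CPM in hepatocytes (adjusted p = 0.11, and 0.030 without cholangiocyte set 3).

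Other signalling lists held fewer calls, beside 12.47% higher and 11.25% lower over all genes tested. In the ERK list 4 of 18 tested genes were higher and 1 lower, in the TGF-beta and BMP list 5 of 23 were higher (3 without cholangiocyte set 1) and none lower, and in the Wnt list 6 of 26 were higher and 3 lower. Etv4, a transcription factor induced by FGF and ERK, had 3.36, 2.84 and 11 CPM in cholangiocytes and no read in hepatocytes, at least 9.50-fold higher (adjusted p = 5.0e-04). Tgfb2, a TGF-beta ligand, had 16.6, 11.1 and 3.46 CPM in cholangiocytes and no read in hepatocytes, at least 17.2-fold higher (adjusted p = 0.0068). Bambi, a decoy receptor of that family, averaged 60.3 ± 8.85 CPM in cholangiocytes and 10.3 ± 4.14 CPM in hepatocytes (2.55 ± 0.34 SE, adjusted p = 5.8e-07). Lgr4, an R-spondin receptor that raises Wnt signalling, stood at 167, 182 and 135 CPM in cholangiocytes and 80.9, 77.4, 60.1 and 70.1 CPM in hepatocytes (1.16 ± 0.22 SE, adjusted p = 1.3e-04). Glul, glutamine synthetase, a Wnt target of hepatocytes near the central vein, was lower, at 37.5, 21.6 and 40.1 CPM in cholangiocytes and 108, 171, 99.8 and 160 CPM in hepatocytes (-2.01 ± 0.25 SE, adjusted p = 1.2e-07).

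Of 30 tested growth factor and hormone receptors 6 were higher and 11 lower, or 6 lower without cholangiocyte set 3 (median -0.56, and 0.31 with 7 higher and 6 lower under total-read scaling). Igf1r, the receptor of insulin-like growth factors, had 30.0, 40.2 and 66.2 CPM in cholangiocytes and no read in hepatocytes, at least 75.3-fold higher (adjusted p = 2.1e-07). Fgfr3 and Erbb2, receptors of fibroblast growth factors and of the EGF family, averaged 245 ± 73.9 and 49.7 ± 9.44 CPM in cholangiocytes and 26.2 ± 7.29 and 5.17 ± 2.91 CPM in hepatocytes. Avpr1a, the vasopressin receptor of hepatocytes, had no read in cholangiocytes and 63.0, 34.1, 27.8 and 45.3 CPM in hepatocytes, at least 123-fold lower (adjusted p = 2.8e-07). Gcgr, the glucagon receptor, averaged 4.91 ± 6.41 CPM in cholangiocytes and 75.7 ± 19 CPM in hepatocytes, and Prlr, the prolactin receptor, 2.32 ± 3.72 and 125 ± 33.1 CPM in that order. Met, the hepatocyte growth factor receptor, did not pass the test, at 22.9, 39.1 and 20.3 CPM in cholangiocytes and 42.1, 23, 18.6 and 25.9 CPM in hepatocytes.

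Ligands and their carriers were called in both directions, with 5 of 26 tested secreted signals higher and 7 lower, although their median was above 0 (0.99, or 0.53 at bounds). Pdgfd, a platelet-derived growth factor, had 30.3, 45.0 and 57.8 CPM in cholangiocytes and no read in hepatocytes, at least 73.4-fold higher (adjusted p = 1.1e-04). Igfbp7, which binds insulin and its relatives, stood at 335, 449 and 501 CPM in cholangiocytes and 0.786, 21.9, 1.15 and 1.13 CPM in hepatocytes (6.11 ± 0.98 SE, adjusted p = 1.2e-05). Igfbp1, the carrier of hepatocytes, was at 24.3, 5.92 and 84.5 CPM in cholangiocytes and 3652, 5817, 1248 and 4499 CPM in hepatocytes (-6.60 ± 0.85 SE, adjusted p = 3.2e-07). Igf2, the fetal growth factor, averaged 1005 ± 320 CPM in cholangiocytes and 4713 ± 709 CPM in hepatocytes (-2.23 ± 0.21 SE, adjusted p = 1.3e-09).

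**Figure D2:**
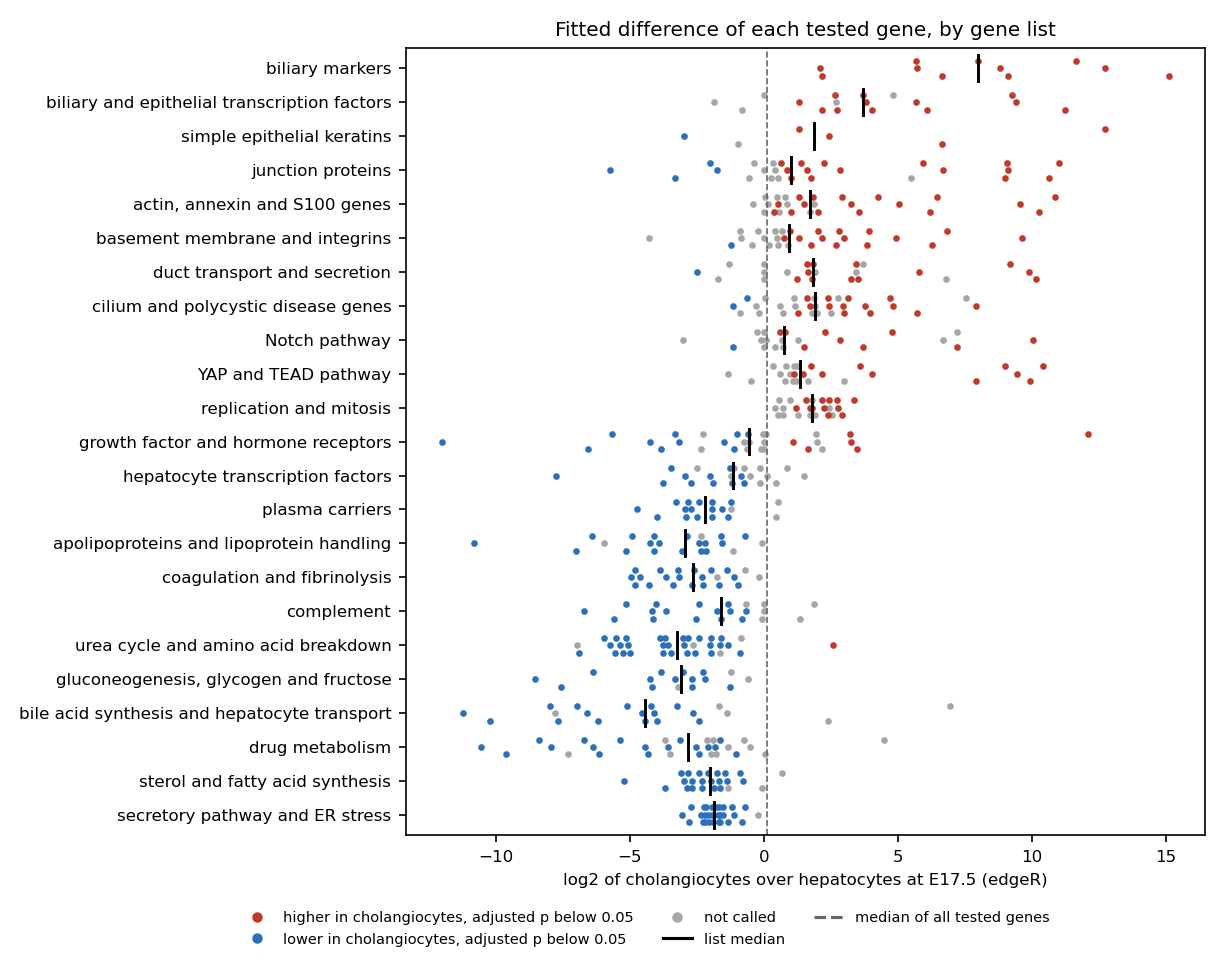
Log2 difference of cholangiocytes over hepatocytes for the tested members of a selection of the gene lists, one point a gene. Called genes are red (higher) or blue (lower), genes not called are grey, and the list median is a bar. Biliary markers have a median of 8.00, and the lists of bile acid synthesis and of urea cycle and amino acid breakdown have medians of -4.43 and -3.25.

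Plasma protein genes were lower in cholangiocytes in nearly every class, yet still abundant. Of 18 tested plasma carriers 15 were lower (median -2.18), of 22 apolipoprotein and lipoprotein genes 18 (-2.95, or -2.65 at bounds), of 22 coagulation genes 19 (-2.63), of 21 complement genes 15 (-1.58) and of 10 members of the alpha-1 antitrypsin family 8 (-2.26, or -1.98 at bounds). None of these lists had a member higher. Promoters of 4 of these genes are shown because plasma protein genes are known targets of HNF1 and C/EBP factors, and because Gc and Vtn, with Alb and Fgb as their contrast, did not pass the test. Capitals mark an HNF1 half-site (GTTAAT, or ATTAAC on the other strand) or a C/EBP site (TTGCNNAA, on either strand) in the 250 bases before the RefSeq start. The coordinates are chr5:90460620-90460869 (plus strand) for Alb, chr3:83049864-83050113 (minus) for Fgb, chr5:89457899-89458148 (minus) for Gc and chr11:78498870-78499119 (plus) for Vtn.
Alb: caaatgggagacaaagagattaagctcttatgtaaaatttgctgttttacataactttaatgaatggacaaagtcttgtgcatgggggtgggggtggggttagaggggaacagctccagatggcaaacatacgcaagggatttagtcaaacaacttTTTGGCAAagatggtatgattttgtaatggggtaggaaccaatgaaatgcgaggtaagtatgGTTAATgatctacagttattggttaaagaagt
Fgb: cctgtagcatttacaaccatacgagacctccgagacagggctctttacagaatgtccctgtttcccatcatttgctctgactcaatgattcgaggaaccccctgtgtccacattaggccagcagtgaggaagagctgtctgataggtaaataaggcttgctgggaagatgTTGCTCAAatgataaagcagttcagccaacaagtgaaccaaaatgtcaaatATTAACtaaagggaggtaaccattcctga
Gc: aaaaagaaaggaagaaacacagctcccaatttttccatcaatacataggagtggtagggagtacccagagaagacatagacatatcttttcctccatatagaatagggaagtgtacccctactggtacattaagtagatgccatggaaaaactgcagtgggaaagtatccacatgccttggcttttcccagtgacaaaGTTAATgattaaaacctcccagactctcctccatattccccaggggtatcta
Vtn: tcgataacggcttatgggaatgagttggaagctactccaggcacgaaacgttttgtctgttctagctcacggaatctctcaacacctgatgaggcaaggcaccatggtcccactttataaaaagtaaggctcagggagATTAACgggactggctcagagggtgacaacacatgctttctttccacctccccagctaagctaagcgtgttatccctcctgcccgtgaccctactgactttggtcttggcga

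Over the whole window of 250 bases before to 50 after the start, 22 of the 70 promoters found for these lists held the HNF1 half-site (31.4%) and 25 the C/EBP motif (35.7%), against 4.78% and 8.48% of the promoters of all genes tested. All 10 of the 10 genes with both motifs were called lower (median -2.53), as were 7 of 12 with the half-site alone, 11 of 15 with the C/EBP motif alone and 27 of 33 with neither. Splitting the list in this way was done after the values were seen and was not tested. Motif matches describe letters in a window and not bound sites.

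Albumin, Alb (chr5:90460897-90476602), was at 32352, 22675 and 35842 CPM in cholangiocytes and 151572, 168937, 151356 and 172580 CPM in hepatocytes (-2.41 ± 0.37 SE, adjusted p = 6.4e-06). It thus remained one of the most read genes of cholangiocytes while no set overlapped the hepatocytes. Alpha-fetoprotein, Afp, its fetal relative, averaged 16230 ± 5025 CPM in cholangiocytes and 124375 ± 7356 CPM in hepatocytes (-2.94 ± 0.23 SE, adjusted p = 1.6e-11). Ahsg, fetuin-A, was at 6941, 1338 and 4677 CPM in cholangiocytes and 66895, 85069, 63491 and 57597 CPM in hepatocytes (-3.98 ± 0.65 SE, adjusted p = 1.6e-05). Fabp1, the fatty acid binding protein of liver, was at 65.5 ± 31.8 CPM in cholangiocytes and 1770 ± 358 CPM in hepatocytes. The vitamin D carrier Gc did not pass the test, at 11589, 9288 and 8449 CPM in cholangiocytes and 6746, 9682, 6192 and 6037 CPM in hepatocytes (0.45 ± 0.47 SE, adjusted p = 0.55). Serpina6, the carrier of glucocorticoids, was at 3717, 2204 and 1856 CPM in cholangiocytes and 2195, 2015, 1685 and 1315 CPM in hepatocytes (adjusted p = 0.096, and 0.047 and 0.035 without hepatocyte set 1 or cholangiocyte set 4). In both genes the groups overlap.

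Fgb (chr3:83040141-83049863), the beta chain, stood at 1384, 742 and 2264 CPM in cholangiocytes and 32757, 44743, 30318 and 35433 CPM in hepatocytes (-4.61 ± 0.34 SE, adjusted p = 5.8e-12). Apoa1, the main protein of high-density lipoprotein, was at 1231, 402 and 1073 CPM in cholangiocytes and 26977, 32469, 34057 and 34601 CPM in hepatocytes (-5.15 ± 0.43 SE, adjusted p = 7.9e-11). Apoc3, an inhibitor of lipoprotein lipase, averaged 0.515 ± 0.613 CPM in cholangiocytes and 78.7 ± 44.0 CPM in hepatocytes (-7.01 ± 0.96 SE, adjusted p = 9.4e-07). Vtn, vitronectin, which is listed with the terminal complement inhibitors, did not pass the test, at 6390, 5027 and 5158 CPM in cholangiocytes and 5624, 7012, 5658 and 4754 CPM in hepatocytes (adjusted p = 0.94). F12, coagulation factor XII, was at 648, 534 and 356 CPM in cholangiocytes and 510, 772, 664 and 379 CPM in hepatocytes (adjusted p = 0.66). Serpina3n, an acute phase inhibitor, had no read in cholangiocytes and 40.7, 84.3, 41.1 and 75.5 CPM in hepatocytes, at least 174-fold lower (adjusted p = 0.0029). Members of the Serpina1 and Serpina3 families are near-identical copies among which the counting could split reads, so their single values are uncertain. The same holds for the Cyp2c, Cyp2d and Ugt2b genes counted in the drug metabolism list below.

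**Figure D3:**
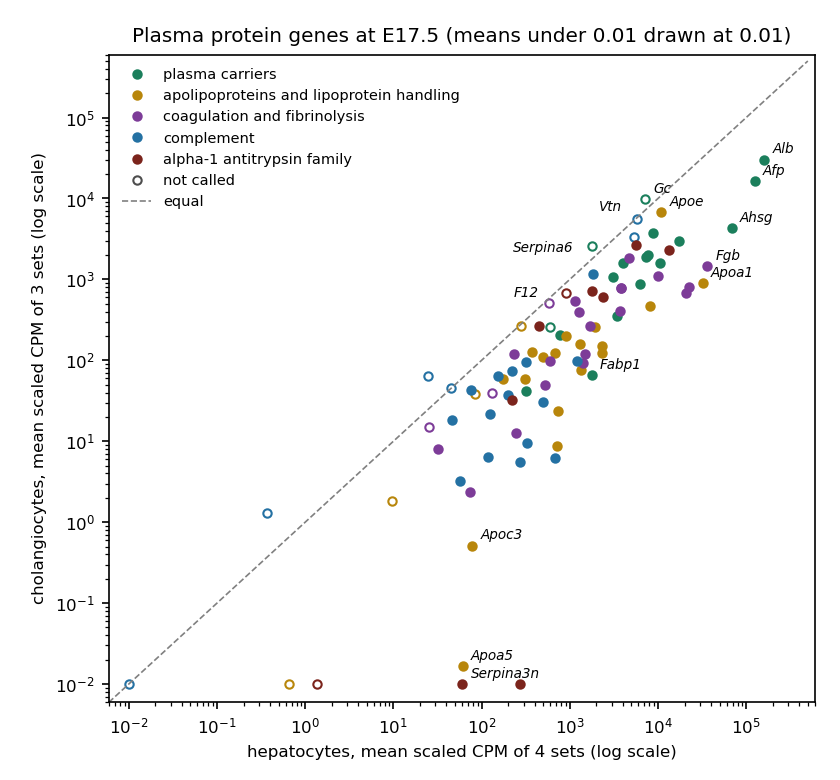
Mean scaled CPM in cholangiocytes (vertical, 3 sets) against hepatocytes (horizontal, 4 sets) for the tested plasma protein genes on log axes; filled points passed the test and the dashed line marks equal levels. Gc, Vtn, F12 and Serpina6 are open points near the line, while Alb at 30289 against 161111 and Fgb at 1463 against 35813 lie below it.

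Metabolic genes of the hepatocyte were mostly lower in cholangiocytes. Of 34 tested genes of the urea cycle and amino acid breakdown 29 were lower and 1 higher (median -3.25, or -3.0 at bounds), of 16 genes of gluconeogenesis, glycogen and fructose 13 were lower and none higher (median -3.09), and of 21 genes of bile acid synthesis and hepatocyte transport 16 were lower and none higher (median -4.43, or -4.08 at bounds). Cps1, the mitochondrial synthetase that starts urea synthesis, stood at 5.12, 48.3 and 55.3 CPM in cholangiocytes and 1489, 1969, 2671 and 2907 CPM in hepatocytes (-5.98 ± 1.20 SE, adjusted p = 3.0e-04). Haao, an enzyme of tryptophan breakdown, averaged 2.42 ± 2.92 CPM in cholangiocytes and 331 ± 50.0 CPM in hepatocytes (-6.89 ± 0.67 SE, adjusted p = 1.7e-09). Sds, serine dehydratase, was the member higher, at 43.9, 30.3 and 27.2 CPM in cholangiocytes and 4.52, 11.8, 5.28 and 0.845 CPM in hepatocytes (2.58 ± 0.86 SE, adjusted p = 0.035). Its call ended on leaving out any 1 set other than hepatocyte set 2 (adjusted p of 0.055 to 0.11).

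Cyp7a1 (chr4:6265612-6275633), the rate-limiting enzyme of bile acid synthesis, rested on 4 reads in cholangiocytes, at 0.150, 0 and 0.0596 CPM, and stood at 175, 253, 180 and 393 CPM in hepatocytes (-11.22 ± 2.19 SE, adjusted p = 2.3e-04). Slc10a1, the sodium-dependent importer of bile acids, was at 0.853, 3.55 and 16.9 CPM in cholangiocytes and 584, 854, 685 and 709 CPM in hepatocytes (-6.59 ± 1.21 SE, adjusted p = 9.6e-05). Abcb11, the canalicular bile salt export pump, averaged 1.92 ± 1.67 CPM in cholangiocytes and 156 ± 8.32 CPM in hepatocytes (-6.18 ± 0.95 SE, adjusted p = 6.7e-06). These are the genes that load the bile which ducts carry. Gys2, liver glycogen synthase, was at 1.35, 6.39 and 0.358 CPM in cholangiocytes and 327, 308, 389 and 463 CPM in hepatocytes (-7.57 ± 1.04 SE, adjusted p = 1.0e-06). G6pc, the last step of glucose release, was read in cholangiocyte set 4 alone at 2.80 CPM and stood at 108, 65.4, 56.7 and 108 CPM in hepatocytes (-6.37 ± 1.53 SE, adjusted p = 0.0055).

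Drug metabolism had 18 of 30 tested genes lower and none higher. Cyp3a11, a cytochrome of drug and steroid oxidation, averaged 0.150 ± 0.149 CPM in cholangiocytes and 158 ± 68.5 CPM in hepatocytes (-9.62 ± 1.37 SE, adjusted p = 3.8e-06). Cyp2e1, which oxidises ethanol, was uneven among hepatocyte sets, at 55.5, 574, 194 and 0.282 CPM, and at 0.953, 0.237 and 0.417 CPM in cholangiocytes. Its groups overlap through hepatocyte set 4. Of 18 genes of fatty acid oxidation and ketogenesis 16 were lower and none higher (median -1.89), and of 24 genes of sterol and fatty acid synthesis 21 were lower and none higher (median -2.02). Scd1, stearoyl-CoA desaturase, and Lss, lanosterol synthase, averaged 3.84 ± 4.51 and 36.5 ± 13.8 CPM in cholangiocytes and 153 ± 71.0 and 472 ± 113 CPM in hepatocytes. In the iron and metal list 12 of 22 tested genes were lower and 1 higher. Hamp, the hormone hepcidin, varied widely among hepatocyte sets, at 35.4, 1003, 71.6 and 0 CPM, and had 0.602, 0 and 0 CPM in cholangiocytes, so its groups overlap (adjusted p = 0.0080, and 0.068 without hepatocyte set 2). The higher member was Hmox1, haem oxygenase, at 11.6, 0.947 and 7.81 CPM in cholangiocytes and 0.589, 0, 0 and 0 CPM in hepatocytes (4.91 ± 1.34 SE, adjusted p = 0.0065).

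Glycolysis was led by Ldha, lactate dehydrogenase A, at 509, 438 and 687 CPM in cholangiocytes and 7965, 6405, 6564 and 11177 CPM in hepatocytes (-3.88 ± 0.26 SE, adjusted p = 9.6e-13). Pkm, the pyruvate kinase of non-hepatic tissues, was higher, at 18.1, 7.81 and 13.47 CPM in cholangiocytes and 6.09, 0.394, 0.688 and 0 CPM in hepatocytes (2.52 ± 0.92 SE, adjusted p = 0.045). Leaving out hepatocyte set 2, 3 or 4 or cholangiocyte set 1 or 4 ended the call of Pkm (adjusted p of 0.077 to 0.13). In that list 9 of 17 tested genes were lower and 1 higher, against 4 lower and 6 higher under total-read scaling.

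The secretory machinery was lower across its list, with 27 of 28 tested genes lower and none higher (median -1.84). P4hb, protein disulfide isomerase, stood at 630, 492 and 798 CPM in cholangiocytes and 3746, 3817, 4348 and 5036 CPM in hepatocytes (-2.73 ± 0.19 SE, adjusted p = 1.4e-12). Ddit3, the stress factor CHOP, was the gene that did not pass, at 6.02, 13.3 and 9.48 CPM in cholangiocytes and 6.58, 10.2, 14.9 and 12.1 CPM in hepatocytes. Nuclear-encoded respiratory chain genes were lower in 73 of 74 tested members (median -1.09), in 52 under ERCC scaling and in 17, with 3 higher, under total-read scaling. Uqcrq, a subunit of complex III, was at 98.9, 96.4 and 101 CPM in cholangiocytes and 435, 465, 480 and 390 CPM in hepatocytes (-2.16 ± 0.13 SE, adjusted p = 1.8e-13). Cytosolic ribosomal protein genes were lower in 50 of 79 tested members (median -0.44), in 1 under ERCC scaling, and higher in 63 with none lower under total-read scaling (median 0.55), so no direction can be given for them.

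Cell cycle genes that passed the test were mostly higher in cholangiocytes. Of 24 tested replication and mitosis genes 12 were higher, or 20 without hepatocyte set 1, and none lower (median 1.81). Mcm4, a subunit of the replicative helicase, was at 108, 147 and 88.5 CPM in cholangiocytes and 17.6, 9.45, 22.7 and 16.3 CPM in hepatocytes (2.79 ± 0.37 SE, adjusted p = 5.3e-07). Top2a, topoisomerase II of dividing cells, was at 87.4, 21.3 and 67.9 CPM in cholangiocytes and 22, 8.47, 5.28 and 5.63 CPM in hepatocytes (2.45 ± 0.72 SE, adjusted p = 0.011, and 0.058 without cholangiocyte set 1). Its groups overlap through cholangiocyte set 3, the set of 4 cells. At 10 TPM or more Top2a was present in 8 of 34 cholangiocytes and 3 of 35 hepatocytes, and all 3 of these came from hepatocyte set 1. Ccnd2, a D-type cyclin, stood at 424, 357 and 450 CPM in cholangiocytes and 0.295, 0.394, 0 and 0.282 CPM in hepatocytes (10.58 ± 1.10 SE, adjusted p = 6.4e-09). Ccnd1, its relative, was at 289, 368 and 247 CPM in cholangiocytes and 37.2, 45.3, 52.1 and 36.9 CPM in hepatocytes (2.81 ± 0.17 SE, adjusted p = 9.8e-14). Of 19 tested G1 cyclins, kinases and inhibitors 5 were higher and 1 lower. Cdk4, the kinase partner of D cyclins, averaged 507 ± 78.5 CPM in cholangiocytes and 254 ± 69.7 CPM in hepatocytes, and the cell cycle inhibitor Cdkn1c, the lower one, was at 227 ± 85.4 and 414 ± 48.7 CPM in that order (-0.87 ± 0.27 SE, adjusted p = 0.017). The call of Cdkn1c ended without hepatocyte set 4 or cholangiocyte set 1 or 3 (adjusted p of 0.061 to 0.10), and its difference was 0.12 under total-read scaling.

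Uhrf1 and Dnmt1, which copy DNA methylation at replication forks, averaged 40.1 ± 25.3 and 55.2 ± 12.7 CPM in cholangiocytes and 5.04 ± 4.57 and 14.6 ± 6.16 CPM in hepatocytes. They are among 4 of 13 DNA methylation and Polycomb genes higher, with none lower. The imprinted genes Peg3 and H19 differed in opposite directions: Peg3 averaged 2461 ± 726 CPM in cholangiocytes and 638 ± 96.6 CPM in hepatocytes, and H19 797 ± 326 and 2593 ± 135 CPM in that order. Their list, which also holds oncofetal genes that are not imprinted, had 6 of 22 tested genes higher and 5 lower, with a median of -0.21 that became 0.80 under total-read scaling. Of 20 genes of innate response and antigen presentation 2 were higher and 3 lower, where 23.7% of all genes tested were called. B2m, the light chain of class I histocompatibility molecules, was at 1318, 870 and 914 CPM in cholangiocytes and 1832, 2029, 1825 and 1717 CPM in hepatocytes (-0.84 ± 0.19 SE, adjusted p = 9.2e-04, and 0.15 under total-read scaling). Of 11 retinoid genes 4 were lower and none higher.

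Outside the lists, 15 genes in each direction were taken by size among called genes at 10 CPM or more with no overlap between the set values of the groups, which 30% of all genes tested showed. The higher ones were led by St14, the serine protease matriptase of epithelial barriers, at 74.2, 83.8 and 65.4 CPM in cholangiocytes and with no read in hepatocytes, at least 123-fold higher (adjusted p = 5.3e-06). Corin, a protease that activates atrial natriuretic peptide, had 56.4, 69.4 and 68.6 CPM in cholangiocytes and no read in hepatocytes, at least 107-fold higher (adjusted p = 2.8e-05). Tinagl1, a matrix protein of basement membranes, was the most abundant of the 15, at 240, 233 and 240 CPM in cholangiocytes and on 1 read in hepatocytes (adjusted p = 1.8e-08). The lower ones included Asgr1, the asialoglycoprotein receptor of hepatocytes, at 0.0502, 0 and 2.15 CPM in cholangiocytes and 190, 280, 434 and 380 CPM in hepatocytes (-8.52 ± 0.79 SE, adjusted p = 2.6e-09). Car3, a carbonic anhydrase, rested on 2 reads in cholangiocytes and averaged 116 ± 79.5 CPM in hepatocytes (adjusted p = 4.7e-06). Insc, an adaptor of spindle orientation, rested on 1 read in cholangiocytes and stood at 70.1, 67.7, 47.7 and 26.2 CPM in hepatocytes (adjusted p = 6.6e-07).

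Single cells showed how far the summed values hold. Spp1 reached 1000 TPM in 28 of 34 cholangiocytes and 0 of 35 hepatocytes, where a count of 0 allows a share of up to 8.57%. Such limits cover the counting of cells alone and count cells of a shared set as independent, so they do not bound the share in other sets. Its lowest, median and highest cells were at 4.07, 9141 and 44919 TPM in cholangiocytes and 0, 0.935 and 8.45 TPM in hepatocytes. Sox9 reached 50 TPM in 30 of 34 cholangiocytes and 0 of 35 hepatocytes, and Krt19 reached 1 TPM in 21 of 34 and 0 of 35. Alb, by the same measure, ran over 1336, 26543 and 87975 TPM in cholangiocytes and 31026, 80587 and 98205 TPM in hepatocytes, so cells of the 2 types overlapped. Cyp7a1 reached 1 TPM in 0 of 34 cholangiocytes, which allows up to 8.82% in the same sense, and in 31 of 35 hepatocytes. The E17.5 cell that came through the EpCAM+ gate with a hepatocyte label had Epcam at 66.5 TPM, Spp1 at 5.70 TPM, Alb at 78253 TPM and Cyp7a1 at 34.2 TPM.

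Within cholangiocytes the 2 programmes varied in opposite directions. A cell's score for a list averages log2(TPM + 1) of its genes. The biliary score ran from 3.15 to 7.52 in cholangiocytes (median 5.65) and from 0.247 to 1.41 in hepatocytes (0.821), with no overlap. Its genes may have served to give the putative types. The plasma carrier score ran from 6.26 to 11.8 in cholangiocytes (9.97) and from 10.4 to 12.1 in hepatocytes (11.6), and overlapped. Across the 34 cholangiocytes Spearman's rho between the biliary score and the plasma carrier score was -0.884, between the biliary and the urea list scores -0.844, and between the biliary and coagulation scores -0.862. In the sets with enough cells the first of these was -0.807 (set 1, 15 cells) and -0.864 (set 4, 15 cells). The points are cells of shared sets and the scores are shares of one library, so an increase in one list lowers another, and rho is given as a description. The biliary score also rose with a cell's ERCC share (rho 0.607, and 0.721 and 0.889 within sets 1 and 4) and showed rho of -0.159 with its reads and 0.137 with the mitosis score. The part of RNA content in this pattern was not tested.

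**Figure D4:**
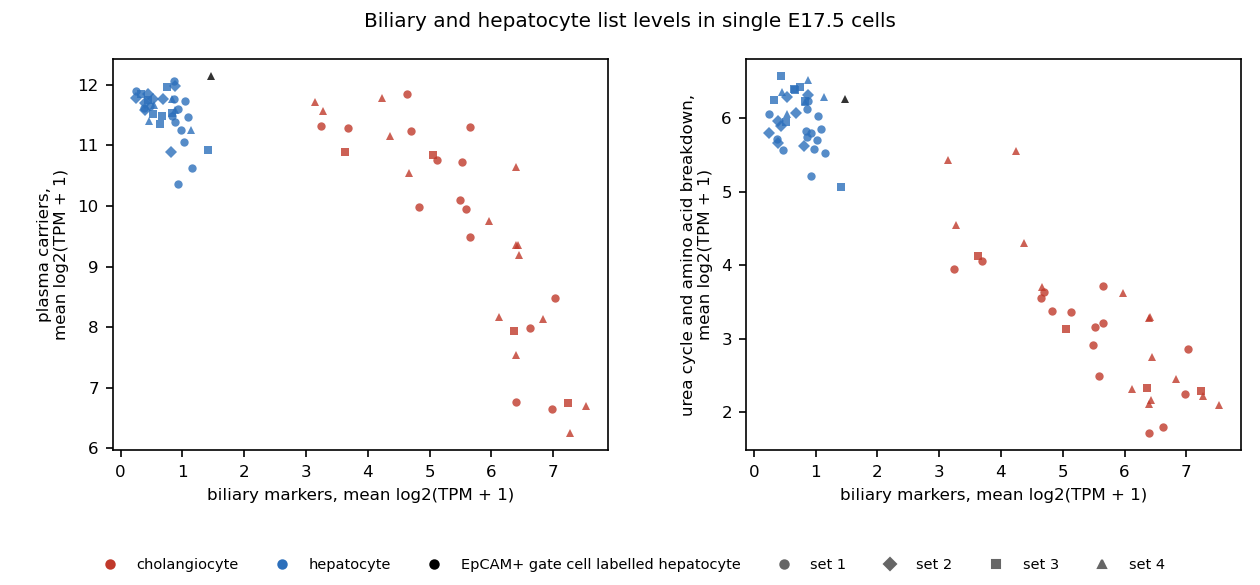
Plasma carrier score (left) and urea cycle and amino acid breakdown score (right) against biliary score, each an average of log2(TPM + 1). Every E17.5 cell is drawn, with shapes for sets and black for the EpCAM+ gate cell labelled hepatocyte. Cholangiocytes spread from 3.15 to 7.52 on the biliary axis with falling plasma carrier scores (Spearman's rho -0.884 over 34 cells). Hepatocytes of the DLK+ gate reach up to 1.41 on it, and the EpCAM+ gate cell labelled hepatocyte lies at 1.47.

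The same comparison 2 days earlier, at E15.5, used 36 cholangiocytes (sets 2, 3 and 4) and 39 hepatoblasts or hepatocytes (sets 1, 3 and 4). At E15.5 1019 genes were higher and 1301 lower in cholangiocytes (13.8% of those tested). The difference between lineages was itself tested between days, as the E17.5 difference minus the E15.5 difference, in the same fit. It was higher at E17.5 for 107 genes and lower for 93, which is 1.19% of the genes. Over the 6921 genes used above, this day difference moved by 0.58 between TMM and total-read scaling, under which it was higher for 642 genes and lower for 43, against 23 and 12 under ERCC scaling. Without cholangiocyte set 3 it differed for 118 genes, and without hepatocyte set 1 for 290. Of the 93 genes whose difference was lower, 71 were higher in hepatocytes at E17.5 than at E15.5 and 15 were lower in cholangiocytes; of the 107 whose difference was higher, 96 were lower in hepatocytes and 6 higher in cholangiocytes. Over all genes, 1014 differed between E17.5 and E15.5 in hepatocytes (6.02%) and 75 in cholangiocytes (0.445%). At E17.5 none of the 70 cells had 10 or more Xist reads, and all 70 had 10 or more reads of Y-linked genes. Of the 377 cells of E10.5 to E15.5, 167 had as many Xist reads and 212 as many Y-linked reads. Among the genes that differed between days, 1 of the 93 and 4 of the 107 lie on X or Y. The part of embryo sex in the day differences was not tested.

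Among members of the lists above, the difference was lower at E17.5 for 6 of 22 coagulation genes, 5 of 22 apolipoprotein and lipoprotein genes and 3 of 21 complement genes, and higher for none of them. Fgb was at 1538, 918 and 2210 CPM in E15.5 cholangiocytes and 5076, 4344 and 5371 CPM in E15.5 hepatocytes, so that the gap widened at E17.5 through hepatocytes (day difference -2.95 ± 0.42 SE, adjusted p = 3.0e-04). Apoa1 was at 3262, 2020 and 4724 CPM in E15.5 cholangiocytes and 12295, 15358 and 14487 CPM in E15.5 hepatocytes (-3.07 ± 0.52 SE, adjusted p = 0.0013). G6pc had at least 56.7 CPM in each hepatocyte set at E17.5 and no read in hepatocytes at E15.5 (-13.32, adjusted p = 0.018). A2m, alpha-2-macroglobulin, was at 4203, 5041, 3739 and 5600 CPM in E17.5 hepatocytes and 414, 335 and 808 CPM in E15.5 hepatocytes (-3.54 ± 0.77 SE, adjusted p = 0.015). The day difference of Afp was smaller (-1.62, adjusted p = 0.0040).

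Onecut1 differed between the lineages at E15.5 and not detectably at E17.5, where its difference was -0.003. It stood at 38.4, 65.6 and 45.7 CPM in E15.5 cholangiocytes and 6.87, 3.54 and 3.40 CPM in E15.5 hepatocytes (3.43, adjusted p = 6.2e-07). The day difference was -3.44 ± 0.56 SE (adjusted p = 8.4e-04), and hepatocytes at E17.5 were higher than at E15.5 by 3.80 (adjusted p = 7.1e-07), whereas cholangiocytes differed by 0.36 (adjusted p = 0.94).

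In the other direction stood genes read less in hepatocytes at E17.5 than at E15.5. The replication and mitosis list had no member called at E15.5 (median -0.74), 5 of its 24 members had a higher difference at E17.5 and none a lower one, and its median day difference was 2.78. Ccnd2 was at 159, 321 and 116 CPM in E15.5 cholangiocytes and 7.92, 13.4 and 12.9 CPM in E15.5 hepatocytes (day difference 6.46 ± 1.38 SE, adjusted p = 0.014). Ccnd1 was at 384, 408 and 276 CPM in E15.5 cholangiocytes and 165, 155 and 142 CPM in E15.5 hepatocytes (1.61 ± 0.23 SE, adjusted p = 3.7e-04). Mcm4 did not differ beyond its sets at E15.5, at 79.2, 92.0 and 90.3 CPM in cholangiocytes and 86.1, 91.8 and 64.0 CPM in hepatocytes, and its day difference was 2.68 ± 0.52 SE (adjusted p = 0.0059). Panx1, a membrane channel, and Trim59, a ring-finger protein, had no read in E17.5 hepatocytes and mean levels of 6.09 and 12.1 CPM in E15.5 hepatocytes (adjusted p = 1.6e-04 and 3.7e-04). Fgb, Apoa1, Afp, Onecut1, Ccnd1 and Mcm4 were taken from the genes named above, and not by the size of their day difference. Each gene described for this test passed it, and not every named gene that passed is described.

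**Figure D5:**
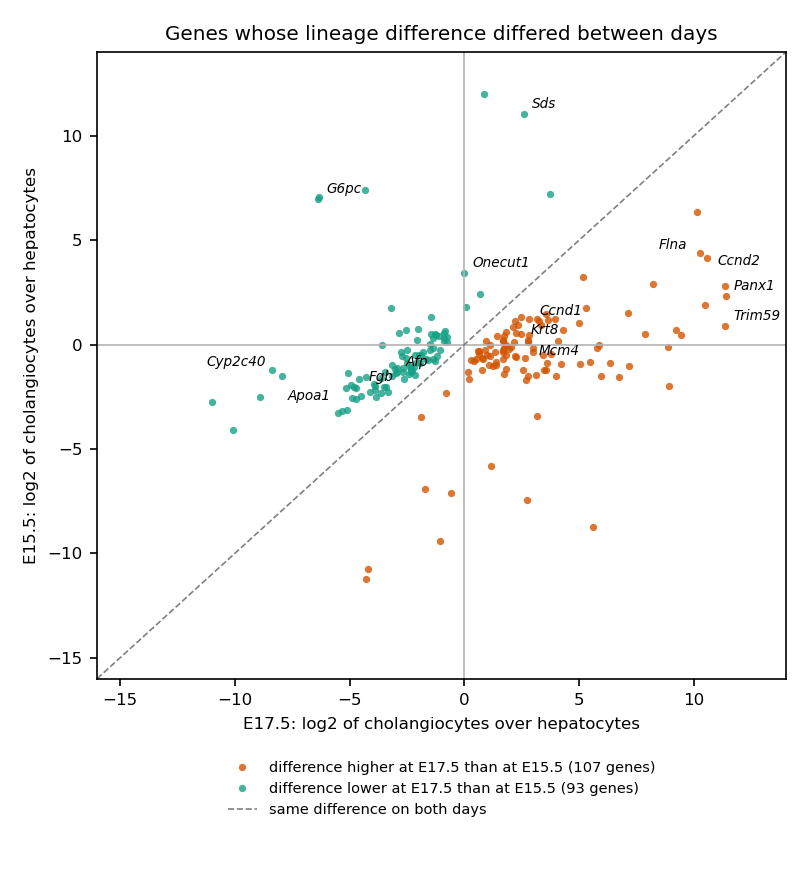
Log2 difference of cholangiocytes over hepatocytes at E17.5 (horizontal) and at E15.5 (vertical) for the 200 genes whose difference differed between days; colours give the direction and the dashed line marks equal differences. Onecut1 lies near 0 on the E17.5 axis and at 3.43 on the E15.5 axis, and Ccnd2 at 10.58 and 4.12 on those axes.

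Markers of other cells of the fetal liver were summed over their lists. Red cell markers were at 0.237 to 3.10 CPM in cholangiocyte sets and 2.75 to 11 CPM in hepatocyte sets, and endothelial markers at 0.237 to 0.702 and 1.18 to 11.3 CPM, cholangiocytes first. Leukocyte markers summed to 19.4 to 46.0 CPM in cholangiocytes and 0 to 10.8 CPM in hepatocytes, nearly all from Csf1r, the macrophage colony-stimulating factor receptor, at 23, 19.4 and 43.8 CPM in cholangiocytes and 10.8, 6.89, 0 and 3.94 CPM in hepatocytes (adjusted p = 0.16). Mesenchymal markers summed to 0.237 to 13.53 CPM in cholangiocytes and 38.5 to 96.6 CPM in hepatocytes, and 2 of 11 tested were lower, Reln at 5.84 ± 5.78 against 45.4 ± 23.2 CPM and Des at 0.385 ± 0.666 against 8.90 ± 5.67 CPM. The call of Des ended without hepatocyte set 4, cholangiocyte set 3 or cholangiocyte set 4 (adjusted p of 0.062 to 0.095). No megakaryocyte marker of 3 tested passed, and 1 of 3 tested pancreas and gut markers, Pdx1, was higher. That list summed to only 0 to 1.25 CPM in cholangiocyte sets and 0 CPM in hepatocyte sets, and had no call under ERCC scaling. Gpm6a, a membrane glycoprotein of mesothelium and neurons, was higher, at 8.38, 11.1 and 25.6 CPM in cholangiocytes and with no read in hepatocytes. Genes induced by cell dissociation did not move together, with 2 of 17 tested higher and 1 lower, where 23.7% of all genes tested were called. Jun, an immediate early factor, was at 156, 321 and 146 CPM in cholangiocytes and 5.11, 9.06, 13.1 and 22.5 CPM in hepatocytes (4.09 ± 0.67 SE, adjusted p = 1.8e-05). The part of other cells or of dissociation in the differences above was not tested.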

How the data were processed

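Single mouse fetal liver cells were sequenced after Smart-seq2 amplification without molecular identifiers. The deposited table holds raw read counts per gene and cell; per the submitters' processing notes, TopHat2 2.1.0, Bowtie2 and HTSeq 0.6.0 were used with GRCm38 (mm10). Whether counting used strand is not given in the sources used here, so overlapping and antisense genes cannot be told apart. The authors also deposited a gene length column in bases (other), used for TPM.

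Reads were summed per day, gate, putative type and set. All 42 embryo sums of at least 2 cells entered 1 edgeR 4.0.16 quasi-likelihood fit (R 4.3.3, limma 3.58.1) with TMM scaling, filterByExpr (minimum count 10) and Benjamini-Hochberg adjustment over 16838 genes, called at adjusted p below 0.05. What a set is was not stated, so p-values measure the spread between sets, which may be technical. DESeq2 1.42.0, its size factors, ERCC and total-read scaling, no filter, fewer samples, a set block, the whole gates and leaving out each set were alternatives.

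The members, the 50 gene lists and the tests were chosen with earlier results of these data known. From each list, text names come from the called members with the largest change (up to 6 a direction) and up to 3 uncalled members with the highest mean CPM, plus the 15 largest non-overlapping calls a direction outside the lists and, between days, the 10 largest a direction, and always the gate genes and cell type markers (Alb and Hnf4a among them). Genes named otherwise (Cldn7, Notch2, Cyr61, Yap1, Met and Abcb11) were chosen after their values were seen. Some results are not reported here. Scripts were tested on simulated counts. Coordinates are from GENCODE M21 (GRCm38), promoters from RefSeq GRCm38.p6 for 12194 of the genes tested. Depth was 3405641 to 17785248 reads a sum, intervals and floors cover counting error only.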

Additional observations from a re-analysis of the deposited data

Results flagged for a closer look

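In 4 genes 1 hepatocyte set stood apart from the other 3 by Dixon's test at the 95% level, among 82 gene-by-group values of 4 sets tested; chance gives about 1 in 20. These were Cyr61 in hepatocyte set 1 at 18.3 CPM, Hamp in set 2 at 1003 CPM, Peg3 in set 3 at 493 CPM, below the others, and Reln in set 4 at 80 CPM.

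The difference of cholangiocytes over hepatocytes differed between E17.5 and E15.5, by edgeR's test of the difference itself, in the 11 genes whose day difference is given above. The log2 day difference was lower for A2m (-3.54), Afp (-1.62), Apoa1 (-3.07), Fgb (-2.95), G6pc (-13.32) and Onecut1 (-3.44). It was higher for Ccnd1 (1.61), Ccnd2 (6.46), Mcm4 (2.68), Panx1 (9.09) and Trim59 (10.49). Other genes named above passed this test as well, among them Flna (5.89, adjusted p = 0.011) and Sds (-8.44). The fitted values of G6pc, Panx1, Trim59 and Sds rest on a group without reads and are not bounds.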

How the results depend on the processing

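The 3994 genes called by edgeR's quasi-likelihood test at E17.5 (2100 higher, 1894 lower) were 3264 to 3642 on leaving out each set in turn, 4055 with DESeq2 size factors, 4494 with the DESeq2 test, 3704 without a filter on low counts and 3905 with the whole EpCAM+ gate. The count moved further under 3 settings. It was 2367 (1089 higher) under ERCC scaling, 7181 (6357 higher, 824 lower) with total reads, and 2297 (846 higher) with the set number as a replicate block over the day compared alone, which tests fewer genes. The 200 genes whose lineage difference differed between days (107 higher, 93 lower) were 4 with that block (1 higher, 3 lower), 35 under ERCC scaling (23 higher, 12 lower), 685 with total reads (642 higher, 43 lower), 556 by DESeq2 (263 higher, 293 lower), and 141 (52 higher) over only the days compared. Leaving out 1 set gave 118 to 290 in all, 69 to 180 higher and 44 to 111 lower. The cause of these shifts was not tested.

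The labels do not say whether cholangiocyte and hepatocyte sets of the same number belong together. Correlations of deviations from the group means were 0.011, 0.065 and 0.148 for sets 1, 3 and 4. Between unlike numbers they ran from -0.111 to 0.112, the latter for cholangiocyte set 1 with hepatocyte set 2. For sets 1, 3 and 4 the ERCC share was 1.785, 2.384 and 3.739% in cholangiocytes and 1.03, 1.121 and 1.763% in hepatocytes. These values do not settle the pairing, so the block values stand as an alternative to the calls above. With the block, Ankrd1, Ano1, Des, Etv4, Grhl2, Hmox1, Numb, Pkm, Reln, Tbx3, Tgfb2 and Uhrf1 passed 0.05 no longer at E17.5 (adjusted p of 0.053 to 0.14), and of the named day differences those of A2m, Ccnd2 and Onecut1 remained. Gc was called higher with the block (0.57, adjusted p = 0.040).

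Among genes called in either setting, signs turned under total-read scaling for F12 (0.82, adjusted p = 0.0021), Hnf4a (0.13, adjusted p = 0.77), Onecut1 (0.98, adjusted p = 0.035), B2m (0.15, adjusted p = 0.46), Cdkn1c (0.12, adjusted p = 0.76) and Vtn (0.93, adjusted p = 3.5e-04). Genes uncalled in both settings also turned sign: under total reads Met (0.99) and Ddit3 (0.82); with DESeq2 size factors Met (0.036) and Onecut1 (0.025); with DESeq2 Met (0.042) and Onecut1 (0.026); without a filter Met (0.0068) and Onecut1 (0.026); and Fn1 under ERCC scaling (-0.15), over the day alone (-0.011) and with the block (-0.089). Leaving out 1 set gave Ddit3 -0.50 to 0.053, F12 -0.38 to 0.027, Fn1 -0.39 to 0.26, Met -0.35 to 0.32, Onecut1 -0.22 to 0.15 and Vtn -0.18 to 0.087, all uncalled. Total-read scaling also called Gc, Fn1, Cdh2, Prox1, Csf1r, Yap1 and Serpina6, and it did not call Gjb2, Ift20, Col18a1, Numb, Car2 and Des. Of the values of named genes over the settings, 1976 kept direction and call, 78 lost the call, 11 gained it and 33 turned sign. With DESeq2, Ankrd1 (adjusted p = 0.48), Ano1 (0.22), Grhl2 (0.25), Sctr (0.23), Hamp (0.28) and G6pc (0.53, and 0.65 for its day difference) lost the call. Over only the days compared, Pkm (0.11), Tbx3 (0.058) and Des (0.051) lost it, and Serpina3n with the whole EpCAM+ gate (0.073). Under ERCC scaling Hnf4a, Pkm, Sds, Des, Numb, Top2a, Lgr4, B2m and Cdk4 lost theirs at E17.5, and Afp (0.39), Ccnd1 (0.20), Onecut1 (0.11) and Mcm4 (0.069) their day difference. Of the list counts, 1327 stayed within 1.5 times and 173 moved further. Among lists with 5 or more calls, ERCC scaling gave 9 basement membrane, 5 Notch, 3 TGF-beta and BMP, 2 Wnt, 3 G1 and 6 replication genes higher. Total reads gave 13 apical, 19 YAP, 14 TGF-beta and BMP, 11 Wnt, 11 secreted signal, 8 G1, 11 oncofetal and imprinted and 19 replication genes higher, and 5 hepatocyte factors, 6 receptors, 5 antitrypsin family, 4 glycolysis, 6 iron and 3 oncofetal and imprinted genes lower. Ribosomal and respiratory chain counts stand in the text. Over only the days compared 6 duct transport genes were higher, and the block moved several of these counts as well.

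Depth limits the calls on unread genes: cholangiocyte set 3 holds 4 cells and 3405641 reads, and hepatocyte set 4 holds 5 cells.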
